A study of Mus musculus with 24 samples.

Results

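The 9 genes described here mark cerebellar Purkinje cells and were followed through the libraries of a mouse knockout of Thumpd1, the tRNA-binding partner that guides the acetyltransferase Nat10 to leucine and serine tRNAs. The genes were Pcp2, Pcp4, Calb1, Pvalb, Car8, Itpr1, Ppp1r17, Slc1a6 and Rgs8. They were chosen by name as known Purkinje cell genes, and all 9 were found once each among the 55450 genes of the count table. The libraries held total RNA depleted of ribosomal RNA and came from 3 tissues (cerebellum, liver, testes) of wild-type (WT) and Thumpd1 KO mice, with 4 libraries per genotype and tissue. The KO was made by injecting C57BL/6N eggs with Cas9 and a pair of guides against Thumpd1, and lines were crossed to C57BL/6, so that every cell of the animal, not only the Purkinje cells, carried the disruption. The WT controls were littermates of matched age, the animals were 6 to 12 weeks old and of either sex, and no group received a treatment. In each tissue the WT libraries were numbered 1 to 4 and the KO libraries 5 to 8. The libraries of a group are described as biological replicates, while the animal behind each library, and any link between equal numbers in different tissues, is not given in the sources used here.

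Purkinje cells are the only output neurons of the cerebellar cortex and inhibit the deep cerebellar nuclei. They have very large dendrites that receive parallel fibres from granule cells and a climbing fibre from the inferior olive. Parallel fibre input acts, through Gq proteins and phospholipase C, to produce inositol trisphosphate, and this opens the calcium channel Itpr1 in the endoplasmic reticulum. Strong calcium buffering, G-protein regulators and a glutamate transporter of their own are hallmarks of these cells. Of the 9 genes, Calb1 and Pvalb encode calcium buffers, Pcp4 a small calmodulin-binding protein, Itpr1 the calcium channel and Car8 a carbonic anhydrase relative without catalytic activity that binds it. Pcp2 and Rgs8 encode regulators of G-protein signalling, Ppp1r17 an inhibitor of protein phosphatases that is phosphorylated by cGMP-dependent kinase, and Slc1a6 the glutamate transporter EAAT4. Pvalb is also made by cerebellar interneurons and Itpr1 by many cell types. In bulk tissue a lower value cannot be told apart as fewer Purkinje cells or as less RNA per cell.

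Thumpd1 itself gave 406 to 539 counts in WT cerebellum and 0 to 2 in KO cerebellum. In liver it gave 248 to 325 against 0 to 4 counts, and in testes 740 to 846 against 23 to 41, so every library fitted its label. Total counts per library ran from 16353797 to 37889615 over all 24 libraries, from 18365028 to 24728845 in WT cerebellum and from 16353797 to 19572030 in KO cerebellum. The cerebellum libraries stood apart in neighbouring pairs. Genes of the choroid plexus, the epithelium that secretes cerebrospinal fluid, summed to 1072 and 1098 CPM (counts scaled to a common library total of 1e6) in WT replicates 1 and 2, 19.6 and 19.1 in WT replicates 3 and 4, 23.2 and 24.6 in KO replicates 5 and 6, and 369 in both KO replicates 7 and 8. Libraries of a pair differed by more than sampling noise (chi-square per degree of freedom 3.20 to 5.47 within pairs, 5.58 to 12.3 between other libraries of a genotype). This measure is set against counting noise alone, so it cannot tell whether a pair shares an animal or a dissection. The libraries are described as biological replicates and were kept as separate samples.

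In WT cerebellum all 9 genes were abundant, with 49.6 to 291 CPM per kilobase (kb) of exon. Pvalb stood highest at 291 ± 9.64 CPM per kb (SD, n = 4), followed by Car8 at 256 ± 14.3, Itpr1 at 192 ± 7.80, Calb1 at 123 ± 5.12 and Rgs8 at 109 ± 3.76. Below them came Pcp2 at 88.9 ± 3.75, Pcp4 at 81.3 ± 6.09, Ppp1r17 at 63.1 ± 2.90 and Slc1a6 at 49.6 ± 1.70. Each gene was separate from the next in this order in every library, except that the WT libraries of Pcp2 (85.5 to 93.2) and Pcp4 (77.0 to 90.1) overlapped. The 9 genes summed to 6720, 6687, 7135 and 7141 CPM in the WT libraries, and Itpr1 alone took 50.8% ± 0.343 (SD, n = 4) of that sum.

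The cerebellum was far above the other tissues for every one of the 9 genes. With limma-voom and TMM factors over the 24 libraries, 42.5% of all genes tested were higher in WT cerebellum than in WT liver at an adjusted p under 0.05, and 38.5% were higher than in WT testes. The 9 genes are described by their levels and are not counted against these shares, because 7 of them passed the filter on low counts only through cerebellum and Car8 only through cerebellum and liver. Pcp2 was the cleanest marker, with 13964 counts over the 4 WT cerebellum libraries and 0 counts in each of the 16 liver and testes libraries. On plain CPM the group floor of 3 counts makes it at least 6634-fold higher than in WT liver and at least 6839.6-fold higher than in WT testes. With library totals scaled by TMM these bounds were 2905-fold and 5717-fold. A count of 0 in a liver or testes library allows a level of up to 0.0792 to 0.165 CPM, counting error only.

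Most of the other members were close to as restricted. Rgs8, Pvalb, Ppp1r17 and Pcp4 gave 0 counts in the 4 WT liver libraries, which puts WT cerebellum at least 42868-fold, 12325-fold, 4499.8-fold and 3385-fold higher on plain CPM, and at least 18772-fold, 5397-fold, 1970.5-fold and 1482-fold higher with TMM-scaled library totals. Calb1 had 1 count in all of WT liver and Slc1a6 had 4. In WT testes the summed counts were 3 for Pcp4, 5 for Calb1, 8 for Pvalb, 18 for Ppp1r17, 32 for Rgs8, 44 for Car8 and 50 for Slc1a6, so traces were present there. Slc1a6 had the smallest testes ratio of these, 269 (exact 95% counting interval 204 to 363).

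Itpr1 and Car8 were the exceptions. Itpr1 was read at 112, 105, 98.9 and 95.5 CPM in WT liver and at 71.8, 70.5, 61.8 and 64.2 CPM in WT testes. Its summed level in WT cerebellum was 34.0 times that in liver and 52.1 times that in testes. Car8 was read at 51.9, 53.0, 65.2 and 62.9 CPM in WT liver, and WT cerebellum was 16.9 times higher, while WT testes held only 6 to 17 counts per library. These ratios use plain CPM. With TMM factors, under which the median log2 difference of all genes was -0.04 against liver and -0.40 against testes, cerebellum over liver was 7.44-fold for Car8 and 14.9-fold for Itpr1, and cerebellum over testes was 43.8-fold for Itpr1.

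**Figure D1:**
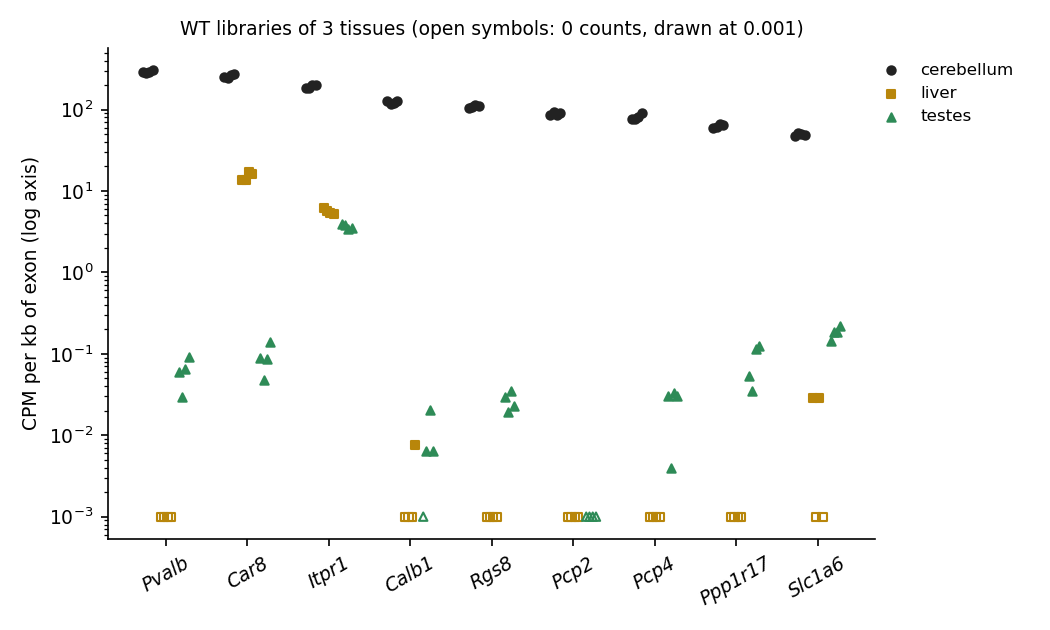
Level of each of the 9 genes in the 4 WT libraries of cerebellum (circles), liver (squares) and testes (triangles), in CPM per kb of exon on a log axis, ordered by level in cerebellum; open symbols drawn at 0.001 are libraries with 0 counts. In liver only Car8 and Itpr1 lie above 1 CPM per kb, and in testes only Itpr1 does.

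Upstream sequence was at hand for 5 of the 9 genes (Pcp2, Pcp4, Pvalb, Rgs8 and Slc1a6, RefSeq starts on GRCm38.p6). It was searched on both strands for AGGTCA, the core motif of nuclear receptors such as Rora, which Purkinje cells need to mature. The motif was present in the 250 bases before at least 1 annotated start of Pcp2, Pcp4 and Rgs8. It was in 5 of the 11 windows of the 5 genes, some of them overlapping, against 14.0% of 32851 such windows in the genome. Most windows with the motif belong to Pcp2, so these shares do not compare gene by gene. Some of them overlap annotated exons, by 207 bases in a Pcp2 window and by 196 bases in that of Rgs8. Of the remaining genes, Pvalb and Slc1a6 had no match to these letters. The stretches below show a gene with the motif close to its start, a gene with it further upstream and a gene without it, with the motif, or its reverse complement, in capitals. Slc1a6 was shown in place of Pvalb because limma called it higher in KO cerebellum, a call lost under most alternatives (below). Any tie between the motif and genotype was not tested.
Pcp2, chr8:3625548-3625577, minus strand, the 30 bases before the start: cttttaaaaggccttctcAGGTCAgagacc
Pcp4, chr16:96467356-96467605, plus strand: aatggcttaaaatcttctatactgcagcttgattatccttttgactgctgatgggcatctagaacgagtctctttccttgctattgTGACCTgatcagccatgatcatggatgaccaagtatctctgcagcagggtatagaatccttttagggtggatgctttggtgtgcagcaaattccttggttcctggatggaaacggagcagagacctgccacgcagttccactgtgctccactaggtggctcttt
Slc1a6, chr10:78780246-78780495, plus strand: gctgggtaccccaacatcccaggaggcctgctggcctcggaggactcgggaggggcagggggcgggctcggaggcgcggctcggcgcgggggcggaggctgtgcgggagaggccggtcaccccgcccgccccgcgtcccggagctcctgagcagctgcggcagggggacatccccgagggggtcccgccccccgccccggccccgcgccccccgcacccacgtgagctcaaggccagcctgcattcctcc

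The summed level of the 9 genes in cerebellum did not separate KO from WT. The sum was 6848, 6947, 7086 and 7182 CPM in the KO libraries, 1.01 times the WT mean, and the genotypes overlapped. By limma-voom on the 8 cerebellum libraries, Pcp2 and Slc1a6 were called higher in KO at an adjusted p under 0.05 and 7 of the 9 genes were not called, where 6.44% of the 16225 genes tested were called. The median log2 change was 0.00 over the 9 genes and -0.01 over all genes tested, and that of the 9 genes was -0.06 in the libraries with low and 0.10 in those with high choroid plexus genes. The 4 KO libraries lay wholly outside the 4 WT libraries for 1 of the 9 genes, Slc1a6, against 13.8% of all genes tested. All 9 genes passed the filter on low counts in cerebellum, so none of them was left out.

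Pcp2 (chr8:3623371-3625545, minus strand, mm10) showed the largest log2 change of the 9 genes. Its CPM was 156, 170, 157 and 166 in WT and 180, 170, 205 and 204 in KO. KO replicates 7 and 8 were above every WT library, whereas KO replicate 6 (169.7) fell below WT replicate 2 (170.4). The mean CPM rose from 162 ± 6.86 to 189.8 ± 17.7 (SD, n = 4 each), a log2 change of 0.24 ± 0.06 (SE, 95% interval 0.11 to 0.36, limma adjusted p = 0.0355). Exons of Pcp2 overlap those of Pet100 on the other strand over 941 bases, and the strand setting of the counting was not given in the sources used here. Pet100, outside the rule for named genes, was itself read at 8.72 ± 0.779 CPM in WT liver, where Pcp2 had 0 counts, and at 7.73 ± 0.730 CPM in WT cerebellum against 6.97 ± 0.662 CPM in KO cerebellum (SD, n = 4 each).

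Slc1a6 (chr10:78780496-78814765, plus strand) gave 103, 111, 108 and 105 CPM in the WT libraries and 116, 113, 123 and 130 CPM in KO. The lowest KO library was above the highest WT library. The mean rose from 107 ± 3.65 to 120 ± 7.63 CPM (SD, n = 4 each), with a log2 change of 0.18 ± 0.05 (SE, 95% interval 0.08 to 0.28, limma adjusted p = 0.0393).

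Both calls were close to the threshold and depended on the libraries used. Each was lost when any of WT replicates 1, 3 or 4 or KO replicates 5, 7 or 8 was left out, with adjusted p up to 0.103 for Pcp2 and 0.117 for Slc1a6, and also with edgeR, with TMM scaling and without the filter (adjusted p 0.0513 to 0.0699), while the sign stayed positive under every alternative run. The size of the difference varied with the choroid plexus class of the libraries. Among the libraries with these genes above 100 CPM (WT 1 and 2, KO 7 and 8) the log2 change was 0.33 for Pcp2 and 0.24 for Slc1a6 (limma adjusted p 0.00428 and 0.0339). In those below 100 CPM (WT 3 and 4, KO 5 and 6) it was 0.13 and 0.11 (limma adjusted p 0.272 and 0.353). With neighbouring libraries summed to 2 samples per genotype neither was called (adjusted p 0.178 and 0.195). Each choroid plexus class sets a single neighbouring pair of WT libraries against a single pair of KO libraries, so its p rests on the spread within pairs. These groupings were chosen after seeing the data, and the part of choroid plexus tissue in the changes was not tested.

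The other 7 genes did not pass the test. Ppp1r17 (chr6:56017497-56032689) was read at 105, 108, 116 and 115 CPM in the WT libraries and at 118, 123, 115 and 128 CPM in KO, where only KO replicate 7 lay inside the WT range. Its log2 change was 0.13 ± 0.04 (SE, 95% interval 0.03 to 0.22, limma adjusted p = 0.102). Rgs8 (chr1:153653025-153700323) gave 1011, 1047, 1098 and 1064 CPM in the WT libraries and 994, 968, 1048 and 1004 CPM in KO. KO replicate 7 was the only KO library inside the WT range. Its log2 change was -0.08 ± 0.03 (SE, 95% interval -0.14 to -0.02, limma adjusted p = 0.102). An annotated opposite-strand gene that overlaps Rgs8 exons, Gm29529, had at most 1 count in any cerebellum library.

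The calcium buffers and Pcp4 had KO means below the WT means by less than the test could call. Pvalb (chr15:78191114-78206400) was at 297, 297, 300 and 318 CPM in the WT libraries and at 279, 276, 286 and 307 CPM in KO. The KO library with 307 CPM was the only one to reach the WT range. The log2 change of Pvalb was -0.06 ± 0.04 (SE, 95% interval -0.15 to 0.02, limma adjusted p = 0.372). Calb1 (chr4:15881264-15908064) was at 609, 562, 589 and 618 CPM in the WT libraries and at 526, 586, 529 and 600 CPM in KO, so the genotypes overlapped in KO replicates 6 and 8. Calb1 had a log2 change of -0.05 ± 0.05 (SE, 95% interval -0.15 to 0.05, limma adjusted p = 0.588).

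Pcp4 (chr16:96467606-96525793) was the most variable of the 9 genes. It gave 79.4, 79.0, 83.0 and 92.4 CPM in the WT libraries and 77.2, 86.9, 66.9 and 79.6 CPM in KO, with KO replicate 7 lowest, and the genotypes overlapped. The coefficient of variation was 7.48% in WT and 10.6% in KO. Its log2 change was -0.11 ± 0.07 (SE, 95% interval -0.27 to 0.04, limma adjusted p = 0.357). Pcp4 shares 243 exon bases with Igsf5 on the same strand, and the 2 entries of that name were at 0.377 ± 0.122 and 0.0177 ± 0.0354 CPM in WT cerebellum (SD, n = 4).

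For Car8 and its partner Itpr1 the log2 changes were small and did not pass the test. Car8 (chr4:8143362-8239041) was at 955, 929, 1022 and 1046 CPM in the WT libraries and 927, 1004, 1001 and 1039.6 CPM in KO, and the ranges nearly coincided. The log2 change of Car8 was 0.00 ± 0.05 (SE, 95% interval -0.10 to 0.10, limma adjusted p = 0.983). Itpr1 (chr6:108213096-108551109) gave 3406, 3383, 3662 and 3617 CPM in the WT libraries and 3631, 3621, 3710 and 3690 CPM in KO, with WT replicate 3 inside the KO range. The log2 change was 0.06 ± 0.05 (SE, 95% interval -0.04 to 0.17, limma adjusted p = 0.446). Itpr1 ranked 10 by level in 7 of the 8 cerebellum libraries and 9 in KO replicate 7, so quantile normalization, which gives equal ranks equal values, fixed its value in those 7. Without KO replicate 7 its log2 change was 0 by that construction. Opposite-strand genes that overlap Itpr1 exons, Gm44101 and Gm44040, had at most 4 counts in any cerebellum library.

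**Figure D2:**
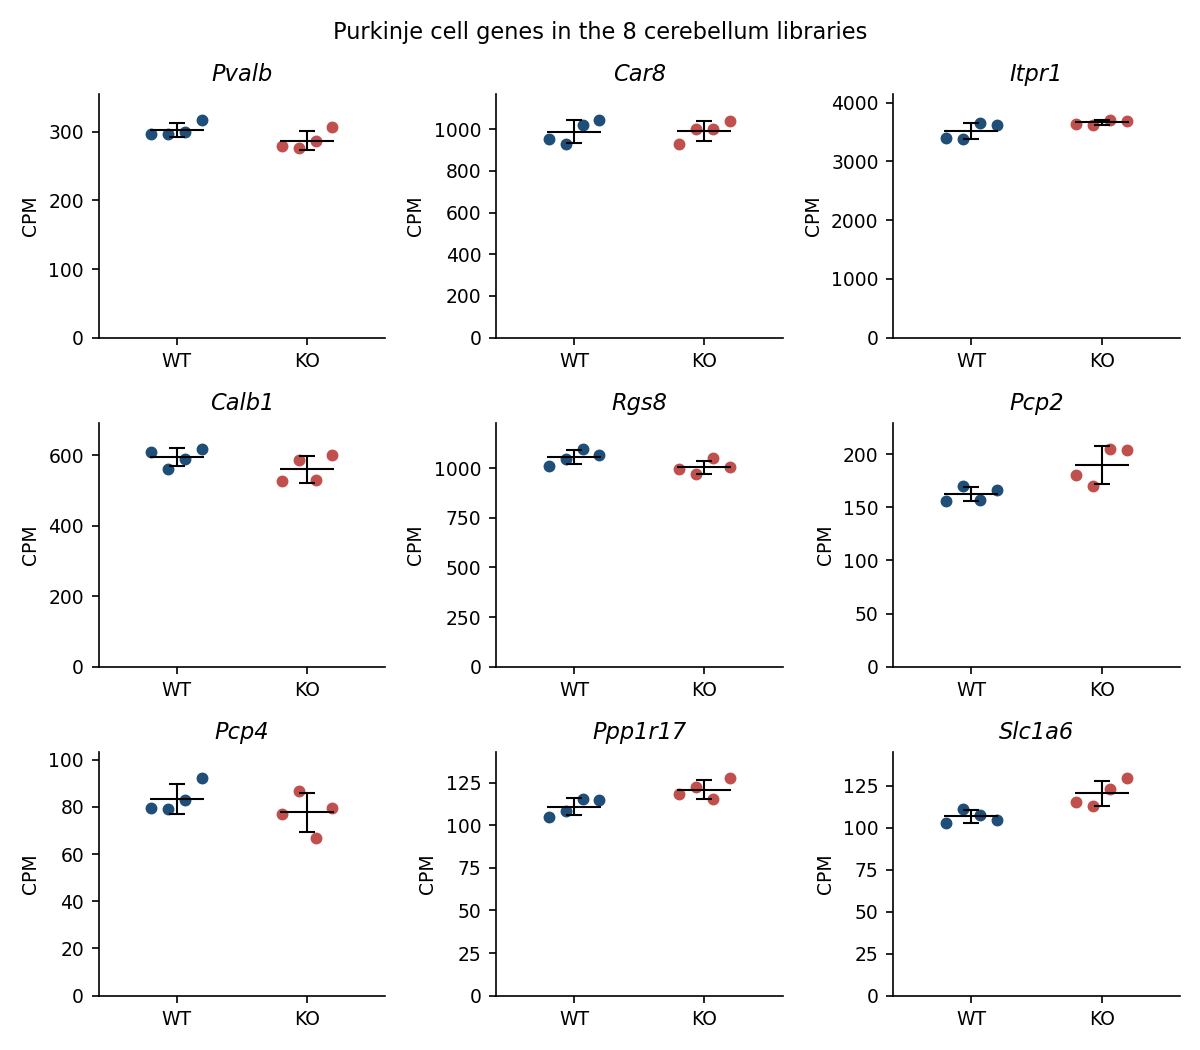
CPM of each of the 9 genes in the 4 WT (blue) and 4 KO (red) cerebellum libraries, with points in order of replicate number and black lines for mean and SD; every axis starts at 0. Slc1a6 is the only gene whose KO libraries all lie above the WT libraries, and Pcp2 is highest in KO replicates 7 and 8.

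**Figure D3:**
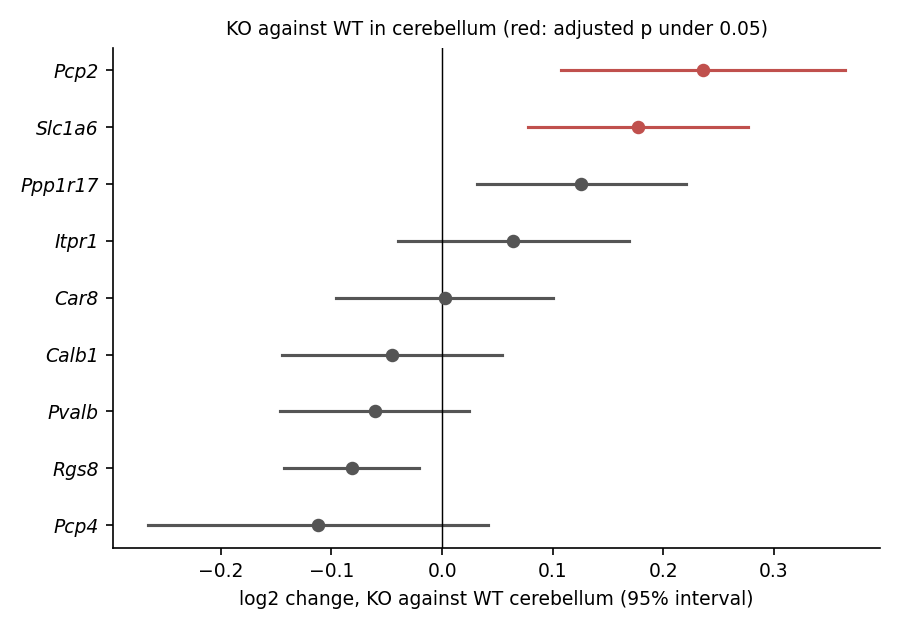
Log2 change of each gene in KO against WT cerebellum from limma-voom, with 95% intervals; red marks an adjusted p under 0.05. The points run from -0.11 for Pcp4 to 0.24 for Pcp2.

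In liver and testes only the genes with at least 1 CPM in 4 libraries could be tested, Car8 and Itpr1 in liver and Itpr1 in testes. Car8 rose in KO liver, from the WT values given before to 82.8, 86.0, 75.2 and 79.0 CPM. All KO libraries were above all WT libraries. The log2 change was 0.51 ± 0.12 (SE, 95% interval 0.25 to 0.77, limma adjusted p = 0.0312), where 5.91% of the genes tested in liver were called. The call was lost without WT replicate 1 or 2 or KO replicate 5, 6 or 8 (adjusted p 0.0622 to 0.0973) and without the filter (0.0617). Neighbouring libraries were not summed in liver. There WT replicates 1 and 2 were the closest of the WT libraries (chi-square per degree of freedom 9.15), while WT replicates 3 and 4 differed most (346). Itpr1 in liver was at 88.8, 87.2, 104 and 102 CPM in KO, within or below the WT range, with a log2 change of -0.06 ± 0.06 (SE, 95% interval -0.19 to 0.06, limma adjusted p = 0.563).

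Itpr1 rose in KO testes, from 71.8, 70.5, 61.8 and 64.2 CPM to 81.0, 84.1, 111 and 102 CPM. The genotypes did not overlap, and KO replicates 7 and 8 were highest. The log2 change was 0.46 ± 0.10 (SE, 95% interval 0.24 to 0.68, limma adjusted p = 0.0104), in a tissue where 20.5% of the genes tested were called. Germ cell transcripts in the testes libraries moved the other way. Markers of meiotic and later germ cells (Prm1, Prm2, Tnp1, Tnp2, Acrv1 and Sycp3 summed) lay between 8773 and 9182 CPM in the WT libraries. They were at 8179 and 7977 CPM in KO replicates 5 and 6 and at 6206 and 6417 CPM in KO replicates 7 and 8, and their part in the Itpr1 value was not tested.

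The KO effect on Itpr1 differed between cerebellum and testes. On the log2 scale, with TMM factors over the 24 libraries, it was lower in cerebellum by 0.31 (difference -0.31 ± 0.08, SE, 95% interval -0.48 to -0.13, limma adjusted p = 0.0162), where 14.5% of the genes tested in all 3 tissues differed. Between cerebellum and liver the difference for Itpr1 was 0.14 ± 0.08 (SE, 95% interval -0.03 to 0.31, limma adjusted p = 0.304), where 7.67% of genes differed. Itpr1 was the only one of the 9 genes expressed widely enough for this test. When genes with 1 CPM in any 4 of the 24 libraries were admitted, Car8 also differed between cerebellum and liver, by -0.45 ± 0.10 (SE, limma adjusted p = 0.0180).

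The signalling cascade around Itpr1 was read from 18 genes of inositol trisphosphate and calcium signalling, among them G proteins, phospholipases, calcium channels and pumps. By limma-voom with quantile normalization, 1 was called higher in KO cerebellum, 0 were called lower and 17 did not pass the test (7 at an unadjusted p under 0.05), against a background of 6.44% of genes called. With TMM and with edgeR 0 were called higher and 1 lower, and with DESeq2 1 was called each way. Inpp5a, the phosphatase that removes the inositol trisphosphate that opens Itpr1, rose from a WT mean of 316 ± 3.21 CPM to 347 ± 13.2 CPM (SD, n = 4 each), with a log2 change of 0.13 ± 0.03 (SE, limma adjusted p = 0.0299), and its call was lost with TMM (limma adjusted p = 0.0562), edgeR (adjusted p = 0.0795), the fit over all 24 libraries (0.263) and neighbouring libraries summed (0.198). The gene called lower with those settings, outside the rule for named genes, was Ahcyl1, whose protein binds Itpr1 and holds back its opening, with a log2 change of -0.12 (limma adjusted p = 0.0321 with TMM). The median log2 change was 0.08, with positive values for 15 of the 18 genes, against 0.03 and 14 genes under TMM. The number called ran from 0 to 6 as single libraries were left out. In the libraries with high choroid plexus genes 7 were called and 16 of 18 values were positive, and in those with low choroid plexus genes 0 were called and 8 of 18 were positive.

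Another 14 Purkinje cell genes, mostly transcription factors and surface or axonal proteins, gave 0 calls by limma and by edgeR and 1 by DESeq2, with 5 at an unadjusted p under 0.05 by limma, and a median log2 change of 0.02. With quality weights in limma 2 were called higher, and leaving out single libraries gave 0 to 2. Rora, needed for Purkinje cell maturation, had a WT mean of 575 ± 23.4 CPM and a KO mean of 545 ± 27.6 CPM (log2 change -0.03 ± 0.04, SE, limma adjusted p = 0.635). Among 11 close relatives of the 9 genes, Calb2, the calcium buffer calretinin found in granule and unipolar brush cells, rose from 226 ± 5.76 to 313 ± 19.4 CPM (log2 change 0.48 ± 0.04, SE, limma adjusted p = 8.59e-05). Itpr3 fell from 51.7 ± 1.74 to 40.1 ± 2.94 CPM (log2 change -0.38 ± 0.06, SE, limma adjusted p = 0.00203, and 0.0744 with neighbouring libraries summed), and Itpr2 did not pass the test (32.1 ± 0.879 and 32.0 ± 2.05 CPM).

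Markers of other cells in the dissected tissue were read beside the Purkinje cell genes. Over all genes tested in cerebellum 6.44% were called, in either direction. Of 12 granule cell genes, 4 were called lower and none higher, with Zic1 (log2 change -0.21), Gabra6 (-0.26) and Neurod1 (-0.22) among them, while 7 of the 12 log2 changes were positive, with a median of 0.01. The list summed to between 7917 and 8207 CPM in WT libraries and between 7363 and 7895 CPM in KO. Of 10 interneuron genes only Tfap2b was called, as lower (-0.21). Gfap (0.23) was called higher of 8 astrocyte and Bergmann glia genes, as were Mag (0.27) and Cnp (0.19) of 8 oligodendrocyte genes, whose calls were lost without the filter (limma adjusted p 0.0543 and 0.0547) and in the fit over all 24 libraries (0.200 and 0.227), and that of Cnp also with edgeR (0.0639). The log2 changes of all 8 oligodendrocyte genes were positive, with a median of 0.18, while the sums overlapped between genotypes. The 8 choroid plexus genes and the 5 microglia genes tested gave 0 calls by limma, edgeR and DESeq2, with 0 and 2 at an unadjusted p under 0.05 by limma. The microglia genes nevertheless summed to 46.1 to 52.9 CPM in the WT libraries against 53.9 to 58.0 CPM in the KO libraries, without overlap, and all 5 log2 changes were positive (median 0.14). Their part in the values of the 9 genes was not tested. With neighbouring libraries summed, the calls of Zic1, Neurod1, Tfap2b, Gfap, Mag and Cnp were lost (limma adjusted p 0.0904, 0.0939, 0.140, 0.131, 0.167 and 0.176), and Gabra6 was called (0.0498). In the fit over all 24 libraries Zic1, Tfap2b and Gfap were not called either (limma adjusted p 0.0902, 0.368 and 0.122).

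Genes of other brain regions differed among the libraries as well, where 6.44% of all genes tested in cerebellum were called. Forebrain markers summed to between 120 and 136 CPM in WT libraries and between 157 and 180.1 CPM in KO, with Nrgn and Bcl11b called higher of 7 tested (log2 changes 3.42 and 1.52, limma adjusted p 0.0498 and 0.0711 with neighbouring libraries summed), while Emx1 and Fezf2 had at most 2 counts in any library. Midbrain markers summed to between 20.3 and 29.4 CPM in the WT libraries. The sum was 36.9 CPM in KO replicates 5 and 6 and 24.2 and 21.7 CPM in KO replicates 7 and 8. Th was called higher (log2 change 0.46), though neither with neighbouring libraries summed (limma adjusted p 0.171) nor without the filter (0.0632). Tal1 averaged 0.715 ± 0.268 CPM in the WT and 1.72 ± 0.285 CPM in the KO libraries (SD, n = 4 each), and since it passed the filter on low counts mainly through the KO libraries, no call is given for it. Both Foxa1 and Foxa2 had 0 counts. Hindbrain markers summed to 0.561 to 2.26 CPM, with none testable. Markers of liver other than Ttr, and of testes, had at most 9 counts in any cerebellum library. The part of such tissue in the values of the 9 genes was not tested.

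**Figure D4:**
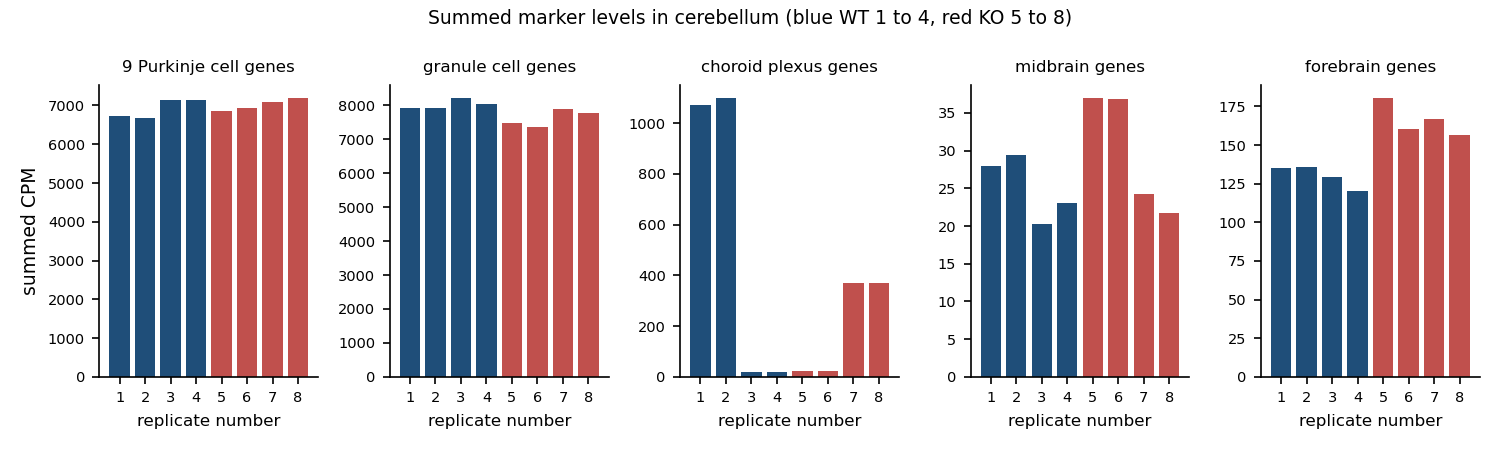
Summed CPM of 5 gene lists in the 8 cerebellum libraries, WT replicates 1 to 4 in blue and KO replicates 5 to 8 in red, each axis from 0. The 9 Purkinje cell genes stay between 6687 and 7182 CPM, while choroid plexus genes range from 19.1 to 1098 CPM in neighbouring pairs of libraries.

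Over the 8 cerebellum libraries, genes whose log2 CPM closely resembled the mean centred profile of the 9 genes were Mtg1 (Pearson r = 0.958), Prom1 (0.948), Tram1l1 (0.941) and Pla2g7 (0.933). They are given as a description, without a p, since the 8 libraries fall into 4 neighbouring pairs. The mean profile itself varied little, from -0.06 in WT replicate 1 to 0.08 in KO replicate 8 on the log2 scale. Mean changes in KO of these 4 genes lay between 0.04 and 0.10 on the log2 scale and none was called.

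Because Thumpd1 acts on leucine and serine tRNAs, the coding sequences of the 9 genes (GENCODE M21) were read for those codons. Leucine and serine codons made up a median of 17.3% of their residues, against 17.9% over 13300 genes tested in cerebellum with a complete coding sequence. Calb1 was richest in leucine (41 of 261 residues, 15.7%), and Pcp4 had 0 leucine codons in 62 residues and 6 serine codons. The leucine codon TTA was missing from Pcp2, Pcp4 and Pvalb, as it was from 22.1% of those 13300 genes. It made up 1.72% of the codons of Car8, 1.15% in Calb1 and 1.11% in Rgs8, against a median of 0.472% over the same genes, and 0.400% in Itpr1. The sequence below shows the poorest of the 9 genes in leucine, with its serine codons in capitals.
Pcp4, complete coding sequence, 189 bases: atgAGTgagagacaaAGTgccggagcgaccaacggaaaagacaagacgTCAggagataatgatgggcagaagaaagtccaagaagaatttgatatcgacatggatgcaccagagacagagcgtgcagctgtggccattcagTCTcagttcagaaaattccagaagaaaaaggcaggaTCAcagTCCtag
These RNA levels give no measure of how such codons are translated.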

How the data were processed

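Tissues had been frozen in RNAlater, extracted with Trizol and made into libraries with a stranded total RNA kit after ribosomal RNA depletion, then read as paired ends. The authors aligned reads with STAR to mm10 and deposited RSEM expected counts per gene (GENCODE M21). Tool versions and strand setting are not given in the sources used here. The deposited expected counts are not normalized, and 0 columns were left unmatched. Samples were grouped by the labels.

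CPM was computed from the table, and CPM per kb used the union of annotated exons. KO was compared with WT in each tissue by limma-voom (limma 3.58.1, R 4.3.3) with quantile normalization, after keeping genes with at least 1 CPM in at least 4 libraries, and Benjamini-Hochberg adjusted p under 0.05 over all genes tested was called. Tissues and differences between KO effects were compared over 24 libraries with TMM factors (edgeR 4.0.16). Alternatives were edgeR's quasi-likelihood test and DESeq2 1.42.0 on counts rounded to whole numbers, TMM, no filter, quality weights, a single fit of the 24 libraries, omission of each library in turn and the replicate number as a block. Another 3, added after seeing the data, grouped cerebellum libraries by choroid plexus genes or summed neighbours. The fits were tested on simulated counts.

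The members and the gene lists (inositol trisphosphate and calcium signalling, other Purkinje cell genes, relatives, interneurons, granule cells, astrocytes, oligodendrocytes, choroid plexus, microglia, midbrain, forebrain, hindbrain, liver, testes) were chosen with earlier results of these data known. Genes were named by a rule: the members, Thumpd1, up to 3 called higher and 3 called lower per list by adjusted p, and the 5 genes most like the mean of the members over log2(CPM + 0.01), without predicted genes and pseudogenes. Some items are not reported here. Rora, Itpr2, Pet100, Igsf5, Ahcyl1, Gm29529, Gm44101, Gm44040 and list genes given only for their counts fall outside it. Libraries held 16353797 to 37889615 counts, and intervals and floors of 3 counts cover counting error only.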

Additional observations from a re-analysis of the deposited data

Results flagged for a closer look

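Pvalb in WT cerebellum replicate 4 stood apart from its group at 318 CPM, with the other 3 libraries between 297 and 300 CPM. It was the only library so far from its group among 33 groups of 4 examined, and such a gap arises by chance in about 1 in 20 groups.

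The KO effect on Itpr1 in cerebellum minus that in testes was -0.31 on the log2 scale (limma adjusted p = 0.0162), and germ cell markers in testes were lower in KO while Itpr1 was higher. That on Car8 was -0.45 in cerebellum minus liver (limma adjusted p = 0.0180), in the fit that admits genes with 1 CPM in any 4 of the 24 libraries. The same fit gave a difference of 1.84 ± 0.55 (SE) for Rgs8 in cerebellum minus testes, which is given as a value without a test. Rgs8 passed the filter on low counts only through cerebellum, and it had 6 to 10 counts per library in WT testes and 0 to 4 in KO testes, near the floor of 3.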

How the results depend on the processing

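Of the 9 genes, 2 were called in cerebellum, and 0 with edgeR, with TMM in place of quantile normalization, without the filter, with neighbouring libraries summed and in the libraries with low choroid plexus genes, where 4, 4, 4, 3 and 3 passed an unadjusted p under 0.05. The single fit over all 24 libraries called 1 (Pcp2, with Slc1a6 at an adjusted p of 0.327), and DESeq2, quality weights and the libraries with high choroid plexus genes called 2. Leaving out single libraries gave 0 to 2. Over all genes the 1045 calls became 663 without the filter, 1757 with quality weights, 343 in the fit over all libraries, 400 in the libraries with low choroid plexus genes, 47 with neighbours summed and 417 to 2317 as single libraries were left out. Changes near 0 turned sign. Car8 in cerebellum gave -0.0053 with edgeR, -0.0054 with DESeq2, -0.0030 with TMM, -0.0061 with quality weights, -0.016 in the fit over all libraries, -0.10 with low choroid plexus genes and -0.031 to 0.040 without single libraries, and Pvalb gave 0.0095 with high choroid plexus genes. In liver the 1 call, Car8, was 0 without the filter and 0 to 1 without single libraries. Admitting genes with 1 CPM in any 4 libraries gave 1 call between cerebellum and liver and 2 between cerebellum and testes, of which Rgs8 passed the filter only through cerebellum and is not read as a result. Neighbouring libraries were summed in cerebellum only. In testes, KO replicates 5 and 6 agreed more closely (chi-square per degree of freedom 3.39) than either did with 7 or 8 (20.3 to 31.0). Testes WT replicates 3 and 4 were also close (2.31), and 1 and 2 were not (12.4). Itpr1 in testes stayed called under each of the 14 alternatives run there (log2 change 0.35 to 0.53, adjusted p up to 0.0416), and so did its difference between cerebellum and testes under 20. Same-numbered libraries of different tissues deviated together (r over 0.1) in 3, 3 and 4 of 8 pairs, and 7 of 24 libraries correlated best with their own number, so the numbers were not taken as pairing. With the number as a replicate block that difference was -0.31. The causes of these shifts were not tested. WT and KO share no number within a tissue. Depth does not limit the 9 genes in cerebellum, each with at least 1310 counts per library. In liver and testes most had too few counts for a test.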
